A study of Mus musculus with 8 samples.

Results

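The kinase mTOR and its regulators and translation targets were examined as 10 genes in bulk RNA sequencing of quadriceps muscle. The genes were fixed by name: Mtor, Rptor, Akt1s1 and Deptor of mTOR complex 1 (mTORC1), the GTPase gene Rheb and the genes of its inhibitor, Tsc1 and Tsc2, and the targets Eif4ebp1, Eif4ebp2 and Rps6kb1. All 10 were among the 35494 gene symbols of the count table, and all 10 passed the filter on low counts. Quadriceps came from wild-type male C57BL/6 mice that entered the experiment at 8 weeks of age. In the scMC38 group, 4 mice had MC38 cells (1 M), a mouse colon cancer line, injected under the skin, and the 4 control mice had received the same volume of saline (PBS). Muscle was taken after 28 days, and each mouse gave 1 library with a total count of 50.5 to 62.1 M.

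mTORC1 couples the supply of growth factors, amino acids and energy to protein synthesis. Rheb bound to GTP activates the kinase on the lysosome, and the TSC complex switches Rheb off until AKT inhibits that complex. Active mTORC1 phosphorylates S6 kinase and the 4E-BP proteins. The latter then release the cap-binding protein eIF4E, so that translation can start, and in skeletal muscle this signal promotes fibre growth. These controls act largely through phosphorylation, which mRNA counts do not measure.

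Of the 10 genes, Eif4ebp1 alone passed the test, and it was higher in muscle of tumour-bearing mice, at 1.95 times its control level. It encodes 4E-BP1, the repressor that holds eIF4E when mTORC1 activity is low. The other 9 differed by less than 0.5 on the log2 scale in either direction and did not pass the test. With edgeR's quasi-likelihood test and a threshold of 0.05 on the adjusted p, 1 of 10 members was called higher and 0 lower. Over all 14112 tested genes the share called higher was 0.737%, the share called lower 0.468% and the share called in either direction 1.2%. DESeq2 gave the same counts of members, and over the 15077 genes with an adjusted p it called 6.14% higher and 3.88% lower. The 10 members had a median log2 fold change of 0.14, against 0.00087 over all tested genes. The libraries differed in ways that touch these values. Libraries scMC38 1 and scMC38 3 stood apart in markers of other cells. Their summed neutrophil markers were at 458 and 4146 CPM (counts per M of TMM-scaled library size). In scMC38 2 and 4 the sums were 10.3 and 31.9 CPM, still above every control (0.856 to 7.38 CPM). Control 1 and control 2 had 24.3% and 29.7% of counts on mitochondrially encoded genes, against 14.4% to 18.9% in the rest.

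Eif4ebp1 was measured at 40.0, 44.6, 46.9 and 38.6 CPM in controls 1 to 4, and at 71.9, 76.3, 84.3 and 98.4 CPM in scMC38 1 to 4. The lowest tumour library lay far above the highest control, and the groups did not overlap. Means were 42.5 ± 3.86 CPM in controls and 82.7 ± 11.6 CPM in scMC38 (SD, n = 4). The log2 fold change was 0.96 (SE 0.11, 95% interval 0.70 to 1.22, edgeR adjusted p = 0.0162), which placed the gene 14th by p among those tested. Within the tumour group scMC38 1 was lowest, scMC38 3 next to highest and scMC38 4 highest. With scMC38 1 and 3 left out the difference was 1.06 (edgeR adjusted p = 0.0359). The call was lost without control 1 (log2 fold change 0.93, edgeR adjusted p = 0.0865) and without control 1 and 2 together (0.94, edgeR adjusted p = 0.216). It was kept without each of the other 7 libraries, with adjusted p from 0.0261 to 0.0484. In whole muscle, a change in the number of cells of a type and a change of RNA per cell cannot be told apart.

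**Figure D1:**
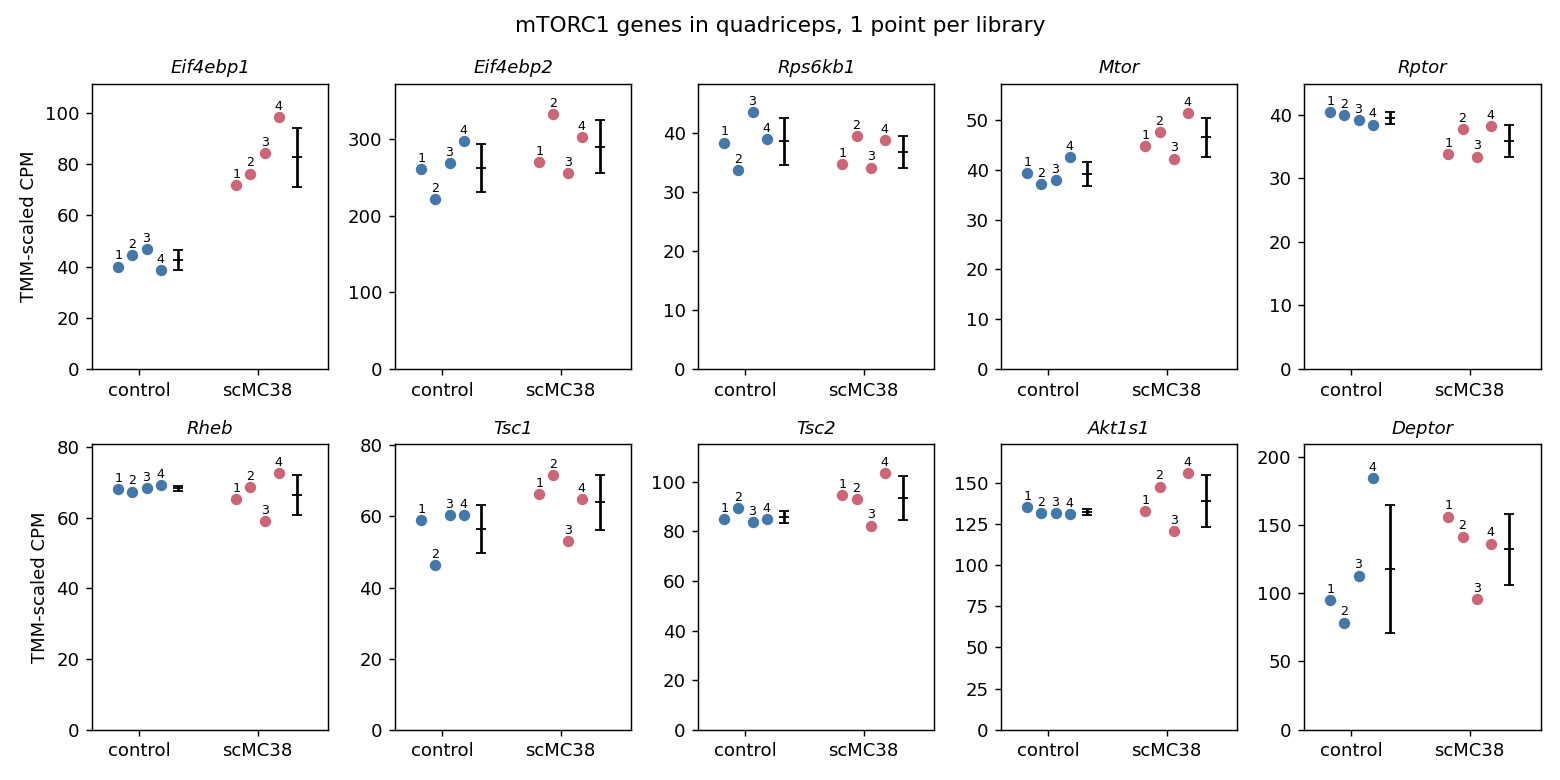
TMM-scaled CPM of the 10 genes in each of the 4 control (blue) and 4 scMC38 (red) libraries, numbered by replicate; black bars give the mean and SD. Eif4ebp1 separates widely, from 38.6 to 46.9 CPM in controls and from 71.9 to 98.4 CPM in scMC38, and Rptor by a narrow gap, while the other 8 overlap.

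Eif4ebp2, the paralogous repressor 4E-BP2, stood at 261, 221, 268 and 297 CPM in the controls and at 270, 333, 256 and 302 CPM in the tumour group. The groups overlapped widely, with a log2 fold change of 0.15 (95% interval -0.13 to 0.43, edgeR adjusted p = 0.518). The interval thus spans from 8.87% lower to 34.7% higher. A further paralog, Eif4ebp3, was close to the detection limit in this muscle, with a log2 fold change of -0.70 (SE 1.07, edgeR adjusted p = 0.739). To compare both main paralogs without any scaling of libraries, the count of Eif4ebp1 was divided by that of Eif4ebp2 in each library. The log2 ratio was -2.70, -2.31, -2.52 and -2.94 in controls 1 to 4 and -1.91, -2.12, -1.60 and -1.62 in scMC38 1 to 4. Every tumour library had a higher ratio than every control. The mean difference was 0.81, and a two-sided exact permutation test over the 70 assignments gave p = 0.0286, the smallest possible. After adjustment over the 4 ratios examined the exact p was 0.114, above the threshold. The unadjusted p was already the smallest possible, so no wider separation of this ratio could have lowered the adjusted value. The adjusted test therefore cannot decide whether this ratio differed.

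The remaining target, Rps6kb1, encodes S6 kinase 1, which phosphorylates ribosomal protein S6. It was measured at 38.4, 33.8, 43.5 and 38.9 CPM in controls and 34.8, 39.5, 34.2 and 38.8 CPM in scMC38. All tumour values lay inside the control range. The log2 fold change of -0.07 (95% interval -0.28 to 0.14) did not pass edgeR's test (adjusted p = 0.695), and its sign turned with scaling by total counts (0.03) and without scMC38 1 and 3 (0.04). Its log2 ratio to Rps6kb2, the gene of S6 kinase 2, was 1.08 ± 0.133 in controls and 0.91 ± 0.0646 in scMC38 (SD, n = 4; two-sided exact permutation p = 0.0857, adjusted p = 0.171).

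**Figure D2:**
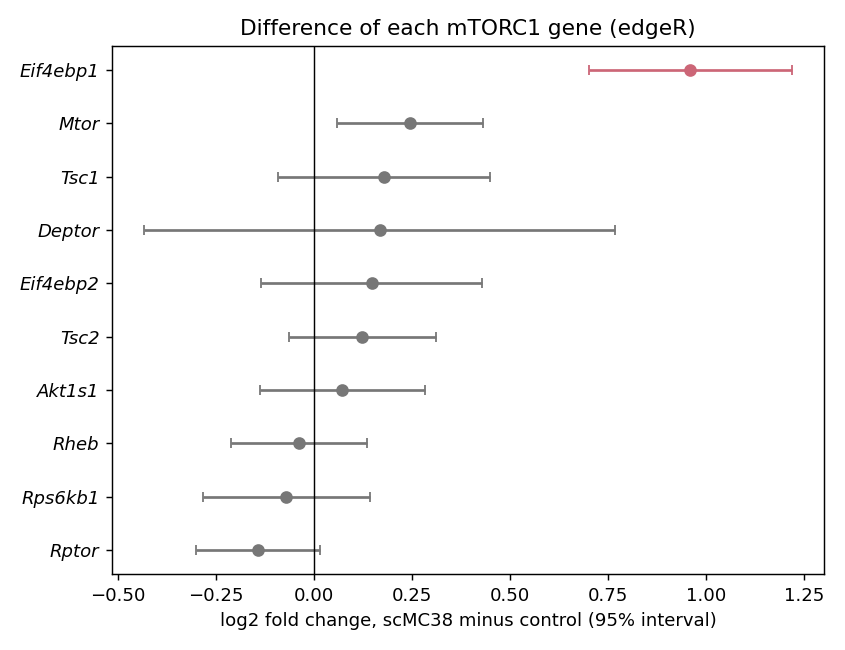
Log2 fold change of each gene, scMC38 minus control, with its 95% interval from edgeR; the called gene is red. Eif4ebp1 lies at 0.96, and the other 9 lie between -0.14 and 0.25.

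Among the subunits, Mtor, the kinase itself, was next to Eif4ebp1 in size of difference. It stood at 39.3, 37.2, 37.9 and 42.6 CPM in controls and at 44.8, 47.6, 42.2 and 51.4 CPM in scMC38. Of the tumour libraries 3 were above all controls, and scMC38 3 was just below control 4. The log2 fold change was 0.25 (95% interval 0.06 to 0.43) with an unadjusted p of 0.0160, and the gene did not pass after adjustment (edgeR adjusted p = 0.147). Over all tested genes 21.0% had an unadjusted p under 0.05, and Eif4ebp1 and Mtor were the 2 members that did.

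Rptor encodes raptor, the scaffold that brings substrates to the kinase, and had values in the opposite direction. Controls were at 40.5, 40.0, 39.1 and 38.4 CPM, and scMC38 libraries at 33.8, 37.7, 33.4 and 38.2 CPM. All 4 tumour values lay below all 4 controls, but the gap between scMC38 4 and control 4 was small. The log2 fold change was -0.14 (95% interval -0.30 to 0.02, edgeR adjusted p = 0.282), and the gene was not called. Groups that do not overlap were found for 2 of the 10 members, Eif4ebp1 and Rptor, and for 13.3% of all tested genes. Against Rictor, the gene of the defining subunit of the second mTOR complex, the log2 ratio of Rptor was 0.98 ± 0.474 in controls and 0.67 ± 0.279 in scMC38 (SD, n = 4). That difference was within the spread (two-sided exact permutation p = 0.343, adjusted p = 0.457), and control 2 had the highest ratio at 1.63.

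The promoters of Mtor and Rptor are shown because these 2 subunit genes followed Eif4ebp1 in the order of p. That of Ppp1r15a is added because this stress gene was called and was also among the 5 whose values across libraries most resembled those of Eif4ebp1. Each runs from 250 bases before to 50 bases after the annotated start, on the strand of the gene, in RefSeq's table for GRCm38.p6. The windows are chr4:148448332-148448631 (plus strand) for Mtor, chr11:119602655-119602954 (plus strand) for Rptor and chr7:45526219-45526518 (minus strand) for Ppp1r15a. Capitals mark matches on either strand to the motifs searched.
Mtor: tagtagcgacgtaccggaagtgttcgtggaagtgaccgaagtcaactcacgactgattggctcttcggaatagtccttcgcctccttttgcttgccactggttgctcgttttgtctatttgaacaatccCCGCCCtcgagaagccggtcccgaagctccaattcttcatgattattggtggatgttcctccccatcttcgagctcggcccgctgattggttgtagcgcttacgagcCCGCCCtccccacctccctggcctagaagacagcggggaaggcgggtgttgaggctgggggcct
Rptor: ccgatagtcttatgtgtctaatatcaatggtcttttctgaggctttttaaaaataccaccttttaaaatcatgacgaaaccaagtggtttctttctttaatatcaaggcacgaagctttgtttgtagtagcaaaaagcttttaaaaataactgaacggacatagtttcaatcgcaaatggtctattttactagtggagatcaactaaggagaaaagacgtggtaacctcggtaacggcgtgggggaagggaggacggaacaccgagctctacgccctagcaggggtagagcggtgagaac
Ppp1r15a: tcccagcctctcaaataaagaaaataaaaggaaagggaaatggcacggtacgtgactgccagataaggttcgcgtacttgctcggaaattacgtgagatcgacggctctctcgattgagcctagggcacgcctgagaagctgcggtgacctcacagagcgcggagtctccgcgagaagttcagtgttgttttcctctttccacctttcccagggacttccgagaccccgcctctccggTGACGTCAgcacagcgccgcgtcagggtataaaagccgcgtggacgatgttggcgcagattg

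The table held windows for 8 of the 10 members, and for neither Eif4ebp1 nor Deptor. Motifs were chosen after the expression values had been seen. The C/EBP-ATF element TGATGCAA, the cAMP response element TGACGTCA and the forkhead element GTAAACA were in 0 of the 8 member windows, where 0.895%, 1.79% and 3.65% of all 32851 windows hold them. The E-box CACGTG was in 1 of 8, that of Rheb, against 7.15% of all windows. The GC box GGGCGG was in 4 of 8 (Mtor, Rheb, Akt1s1 and Eif4ebp2), against 35.7%. The Ppp1r15a window held TGACGTCA, the window of Mtor held the GC box at 2 places, and that of Rptor held none of these motifs. The motifs do not overlap each other in the windows shown.

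Akt1s1 and Deptor encode the inhibitory subunits PRAS40 and DEPTOR. Akt1s1 was uniform in controls, at 135, 132, 131 and 131 CPM, and more spread in scMC38, at 133, 148, 120 and 156 CPM. The tumour values lay on both sides of the controls (log2 fold change 0.07, 95% interval -0.14 to 0.28, edgeR adjusted p = 0.683). Deptor was the most variable member. Its values were 95.2, 78.5, 113 and 185 CPM in controls and 156, 142, 95.5 and 136 CPM in scMC38. Control 4 was above every tumour library and control 2 below every one, and the coefficient of variation in controls was 39.6%. The interval of its log2 fold change, -0.43 to 0.77 around 0.17, therefore leaves room for a sizeable difference either way (edgeR adjusted p = 0.744). The sign turned without control 1 and 2 (-0.18).

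Rheb, the direct activator of mTORC1, had the most even level in controls, at 67.9, 67.4, 68.4 and 69.1 CPM, the smallest coefficient of variation of the 10 genes. In scMC38 it was measured at 65.3, 68.6, 59.0 and 72.7 CPM, again on both sides of the controls. The log2 fold change was -0.04 (edgeR adjusted p = 0.796), and its interval runs from 13.7% lower to 9.78% higher. The sign turned with total counts (0.06), without scMC38 3 (0.01) and without scMC38 1 and 3 (0.07).

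Tsc1 encodes hamartin, which stabilises the TSC complex, and Tsc2 encodes tuberin, its GTPase-activating subunit. Tsc1 stood at 59.1, 46.4, 60.3 and 60.3 CPM in controls, with control 2 apart from the other 3, and at 66.2, 71.6, 53.2 and 64.9 CPM in scMC38. Tsc2 stood at 85.0, 89.3, 83.9 and 85.0 CPM in controls and at 94.8, 93.2, 82.4 and 104 CPM in scMC38. In both genes 3 tumour libraries exceeded all controls and scMC38 3 did not. Neither passed edgeR's test, with log2 fold changes of 0.18 (95% interval -0.09 to 0.45, adjusted p = 0.415) for Tsc1 and 0.12 (-0.06 to 0.31, adjusted p = 0.414) for Tsc2. The log2 ratio of Tsc1 to Tsc2 was -0.61 ± 0.224 in controls and -0.55 ± 0.132 in scMC38 (SD, n = 4; two-sided exact permutation p = 0.771, adjusted p = 0.771).

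**Figure D3:**
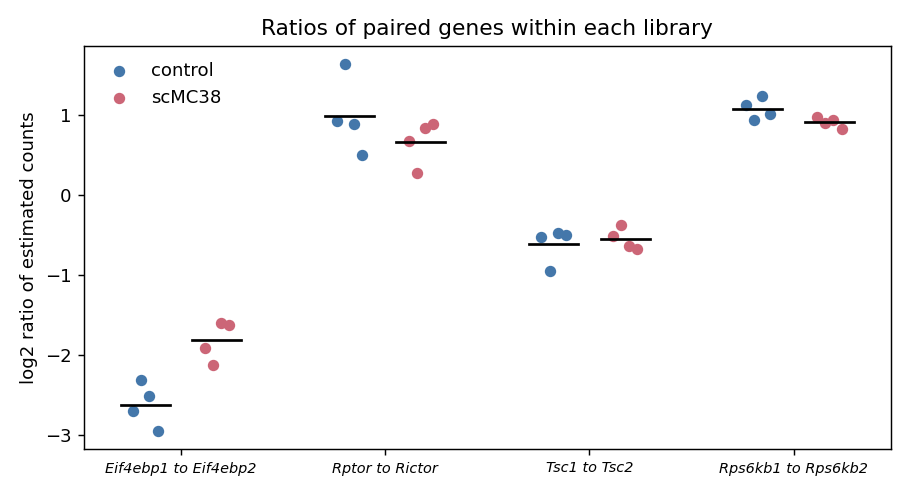
Log2 ratio of estimated counts of paired genes in each control (blue) and scMC38 (red) library, with group means as black lines. The groups do not overlap for Eif4ebp1 to Eif4ebp2 (difference of means 0.81) and overlap for the other 3 ratios.

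Within the tumour group, library scMC38 3 had the lowest CPM for 9 of the 10 genes, the exception being Eif4ebp1. The share of all tested genes lowest in that library was not counted, so the pattern cannot be called particular to the members. That library also had the highest neutrophil markers (4146 CPM summed) and bone markers (570 CPM summed, against 6.11 to 74.5 in the other 3 tumour libraries), and the lowest summed CPM of 8 myofibre genes (91637, against 121981 to 127761). Control 2 was lowest of the controls for 6 members, and scMC38 4 highest of its group for 6. The part of these library differences in the values of single genes was not tested.

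Levels can be compared between genes only per length, for which the length of all exons in GENCODE M21 gene models was used. Eif4ebp2 and Akt1s1 had the highest levels in controls, at 45.3 ± 5.41 and 43.1 ± 0.664 CPM per kb of exon (SD, n = 4), and their ranges overlapped. Eif4ebp1 came next at 19.4 ± 1.76 CPM per kb, below every control value of those 2. Deptor (13.3), Tsc2 (8.92), Rheb (8.84), Tsc1 (4.77), Rps6kb1 (4.46), Mtor (3.88) and Rptor (2.93 CPM per kb) followed as control means. Neighbours overlapped in their control ranges from Eif4ebp1 to Deptor, Deptor to Tsc2, Tsc2 to Rheb, and from Tsc1 to Rps6kb1 to Mtor. In scMC38 the level of Eif4ebp1 was 32.8 to 44.8 CPM per kb, which overlapped the ranges of Akt1s1 (39.2 to 50.7) and Eif4ebp2 (44.2 to 57.5). The order of means was the same in both groups except that Mtor (4.60) stood above Rps6kb1 (4.25 CPM per kb) in scMC38. These lengths join the exons of all annotated isoforms, not of the transcripts expressed here, and come from an earlier annotation than the counts. They therefore order the genes only roughly.

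The rest of the pathway was described with 7 lists holding 118 further genes, of which 116 were tested. Of these, 5 were called higher and 0 lower (edgeR, adjusted p under 0.05), with a median log2 fold change of 0.10. The shares over all tested genes were 0.737% higher and 0.468% lower. The lists were chosen with earlier results of these data known, so their calls are no independent finding. DESeq2, with the higher shares over all genes given above, called 17 higher and 3 lower. The 5 were the autophagy kinase gene Ulk1, Ppp1r15a, and the FoxO targets Fbxo32, Trim63 and Gadd45a. Of 10 other genes of the mTOR complexes and their partners none was called (median -0.04), nor any of 29 genes of amino acid sensing (median -0.01) or of 16 AKT, AMPK and stress genes (median 0.08) by edgeR. At an unadjusted p under 0.05 these lists held 2, 2 and 3 genes, where 21.0% of all tested genes passed.

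In the complex list, Tbc1d7, the gene of a further TSC subunit, came closest. It was at 12.6 to 14.0 CPM in controls and 8.97 to 11.2 CPM in scMC38, without overlap (log2 fold change -0.36, SE 0.09, edgeR adjusted p = 0.0868). Prr5l, which encodes a partner of mTOR complex 2, was below 1 CPM in both group means (0.94, edgeR adjusted p = 0.193). Sesn1, which encodes a leucine-regulated inhibitor of the amino acid branch, was at 24.4, 19.5, 37.8 and 23.4 CPM in controls and 42.9, 40.2, 55.1 and 79.0 CPM in scMC38. Its log2 fold change of 1.05 had a wide error (SE 0.26, edgeR adjusted p = 0.0882), and its relative Sesn3 was at -0.22 (adjusted p = 0.235). Akt2 (0.41, edgeR adjusted p = 0.129) and Akt1 (0.34, adjusted p = 0.172), kinases that act on the TSC complex and PRAS40, had positive values that edgeR did not call. DESeq2 called Tbc1d7 (adjusted p = 0.0154), Sesn1 (adjusted p = 0.0031) and Akt2 (adjusted p = 0.0247).

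The other translation proteins downstream of mTORC1 held 0 calls among 19 genes by edgeR, with a median of 0.14. Of the 19, 6 had an unadjusted p under 0.05 and 16 a positive value, against 21.0% and 50.2% of all tested genes. Eif4b, a cofactor of the cap-bound helicase and a substrate of S6 kinase, was at 205 to 251 CPM in controls and 285 to 346 CPM in scMC38 (log2 fold change 0.48, SE 0.10, edgeR adjusted p = 0.0658). Eef2, the elongation factor that moves the ribosome along the mRNA, was at 1219 to 1347 CPM in controls and 1714 to 1918 CPM in scMC38 (0.48, SE 0.10, edgeR adjusted p = 0.0713). Neither gene overlapped between groups, and both were called by DESeq2 with its own size factors (adjusted p = 0.000158 and 2.3e-07) and by edgeR with total counts (adjusted p = 0.0327 and 0.0282), a scaling that shifts the median of all genes to 0.11. Eif4e, whose product 4E-BP1 binds, the helicase gene Eif4a1 and Rps6, the gene of the S6 kinase substrate, were picked after their values were seen. Eif4e had a value of -0.35 (edgeR adjusted p = 0.0875), Eif4a1 of 0.46 (adjusted p = 0.0964) and Rps6 of 0.23 (adjusted p = 0.291). DESeq2 called Eif4e (adjusted p = 0.0127) and Eif4a1 (adjusted p = 0.0101).

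**Figure D4:**
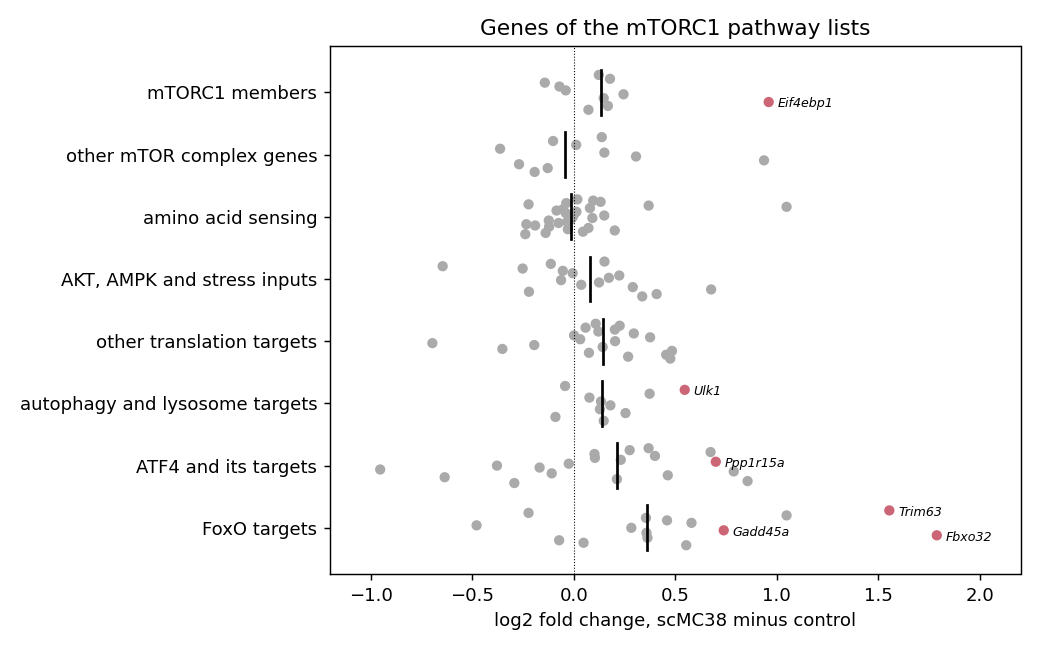
Log2 fold change, scMC38 minus control, of every tested gene in the mTORC1 group and 7 further lists; red points were called by edgeR, and black lines give list medians, from -0.04 to 0.36. Called genes are Eif4ebp1, Ulk1, Ppp1r15a, Gadd45a, Trim63 and Fbxo32.

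Among 10 autophagy and lysosome genes that mTORC1 restrains, 1 was called higher and 0 lower (0.737% and 0.468% over all tested genes). The median was 0.14. Ulk1, which starts autophagosome formation and is blocked by mTORC1 phosphorylation, was at 96.4 to 120 CPM in controls and 139 to 174 CPM in scMC38. Its log2 fold change was 0.55 (SE 0.10, edgeR adjusted p = 0.0485), and the call held in 1 of the 8 fits that leave out a library, that without scMC38 3 (adjusted p 0.0497 to 0.147 over the 8).

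Eif4ebp1 is a known target of the stress factor ATF4 in mouse cells, and its fly counterpart is a FoxO target, so both sets were read beside it. Of 19 tested genes in the ATF4 list 1 was called higher and 0 lower (0.737% and 0.468% over all tested genes). The median was 0.21, with 12 positive and 7 negative values. At an unadjusted p under 0.05, 4 were higher and 2 lower. The 2 lower, picked after their values were seen, were Atf5 (-0.64, edgeR adjusted p = 0.0852) and Ddit3 (-0.95, adjusted p = 0.181). Atf5 did not overlap between groups. Ppp1r15a, which encodes the eIF2 phosphatase subunit GADD34, was at 36.3 to 45.3 CPM in controls and 64.6 to 80.6 CPM in scMC38 (log2 fold change 0.70, SE 0.10, edgeR adjusted p = 0.0299). It kept its call in 3 of the 8 fits that leave out a library (adjusted p 0.0435 to 0.0963). Among 15 FoxO targets, a list chosen with earlier results known, 3 were called higher and 0 lower, with a median of 0.36. Over all tested genes the shares were 0.737% and 0.468%. The 3 called genes were Fbxo32 (1.79) and Trim63 (1.55), whose products tag muscle proteins for degradation, and Gadd45a (0.74), a growth arrest gene. Their edgeR adjusted p were 0.0273, 0.0322 and 0.0341. Called in 4, 1 and 1 of those 8 fits in that order, they had adjusted p up to 0.0963, 0.115 and 0.115. Without control 1 and 2 together none of the 5 called list genes passed (edgeR adjusted p from 0.216 to 0.330).

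The 5 genes nearest to Eif4ebp1 were ranked by the root mean square difference of log2 CPM over the 8 libraries, each gene taken relative to its own control mean, among 8014 tested genes of sufficient level. They were Tmem140 (difference 0.13), Pag1 (0.16), Tfdp2 (0.19), Llgl2 (0.19) and Ppp1r15a (0.20 on the log2 scale). Tfdp2 encodes a dimer partner of E2F factors, Pag1 a membrane adaptor of Src-family signalling and Llgl2 a cell polarity protein. Library scMC38 4 was the highest of the 8 for each of them except Tfdp2, in which scMC38 2 was highest.

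Cell content was read from markers of 15 cell types and states, as summed CPM per library. The 8 myofibre genes summed to 91637 to 129832 CPM, and 0 of them was called. Red cell genes were higher in all tumour libraries (500.8 to 1087 CPM summed in controls, 1643 to 2881 in scMC38, 7 of 7 tested called). Summed tumour epithelial markers were at 0.284 to 1.28 CPM in scMC38 and 1.24 to 1.49 CPM in controls. Summed macrophage markers were at 251, 161, 225 and 74.8 CPM in scMC38 1 to 4, against 79.6 to 111 CPM in controls, so that 3 tumour libraries lay above and scMC38 4 below every control, and 0 of 10 was called by edgeR. Satellite cell markers were lower in every tumour library (9.69 to 11.4 CPM summed) than in any control (14.5 to 19.3), with 0 of 4 called. Summed fibroblast markers were at 1252, 711, 4292 and 647 CPM in scMC38 1 to 4, against 1104 to 1619 CPM in controls. Of these 7 genes 2 had a higher mean in scMC38, and 1 was called. The cell cycle sum reached 112 CPM for library scMC38 3 and 34.0 CPM for scMC38 1, while the remaining 6 libraries ranged between 1.75 and 3.53 CPM. The bone marker sum was highest in the same pair of libraries, with 569.9 CPM for scMC38 3 and 74.5 CPM for scMC38 1, and scMC38 2 and 4 lay within the control range. Endothelial, pericyte and smooth muscle, adipocyte, Schwann cell, B and plasma cell, and T and NK cell markers overlapped between the groups in their sums. Summed neutrophil markers were at 458, 10.3, 4146 and 31.9 CPM in scMC38 1 to 4, against 0.856 to 7.38 CPM in controls. Every tumour library thus lay above every control in these markers, with 0 of 8 tested neutrophil genes called by edgeR. Groups without overlap, in either direction, were found for 13.3% of all tested genes, Eif4ebp1 among them. Within the tumour group Eif4ebp1 was lowest in scMC38 1 (71.9 CPM) and highest in scMC38 4 (98.4 CPM). The parts of neutrophils and of red cells in the value of Eif4ebp1 were not tested.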

How the data were processed

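The deposited table holds expected counts per gene in 8 libraries, which the authors left unscaled for depth or gene length. Salmon 1.10.3, fastp 1.0.1, R 4.4.3, MultiQC 1.30 and FastQC 0.12.1 and the build GRCm39 are listed without roles, per the submitters' processing notes. Strand handling and annotation release are not given in the sources used. RNA was isolated with a column kit and libraries with the Universal Plus mRNA-seq kit, per the labels' protocols. Columns were matched to samples by library name. Of 35667 rows, 144 without a symbol (0.00270% to 0.00403% of counts) were left out, rows of 26 repeated symbols were summed, and the expected counts were rounded. Within groups, all 12 pairs of libraries differed beyond counting noise (chi-square per degree of freedom 66.7 to 515), so each was 1 replicate. The labels give no batch.

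Genes were tested with edgeR 4.0.16 (R 4.3.3): filterByExpr (minimum count 10, minimum total 15), TMM scaling, robust quasi-likelihood F test without covariates, and Benjamini-Hochberg adjustment over 14112 genes. Standard errors and 95% intervals follow from the F statistic. The code was tested on simulated data. The common biological coefficient of variation over all genes was 27.3%, and the median coefficient of variation in controls was 13.1%. For the members it ran from 1.10% (Rheb) to 39.6% (Deptor) in controls. At a spread as small as that of Rheb, counting noise is not negligible. CPM are TMM-scaled; log2 CPM carry a prior count of 2. Log2 ratios of 4 gene pairs were compared by exact permutation. Lists are described by counts and medians. Alternatives were DESeq2 1.42.0, limma-voom (limma 3.58.1), other scalings and filters, the replicate number as a block, and libraries left out. Members and lists were chosen with earlier results of these data known. Named were all members, from each list the called genes (up to 4) or, with none called, the 2 with the smallest p, the ratio partners, and the 5 genes nearest to Eif4ebp1 whose mean log2 CPM was 3 or more; any other is said to be picked later or belongs to a member's family.

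In GENCODE M21 gene models, which belong to an earlier build, 5 of the 10 members share exon bases with a gene on the opposite strand: Rps6kb1 with Rnft1, Rptor with Rptoros, Tsc2 with Pkd1, Akt1s1 with Tbc1d17 and Deptor with Gm9920. Reads of such pairs may not be told apart. Eif4ebp1, Eif4ebp2, Mtor, Rheb and Tsc1 share none.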

Additional observations from a re-analysis of the deposited data

Results flagged for a closer look

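Tsc1 in control 2, at 46.4 CPM, lay far from the other 3 controls (59.1, 60.3 and 60.3 CPM) relative to the range of the group. It was 1 of 24 groups of 4 libraries examined, and chance flags about 1 in 20. Without control 2 the difference in the log2 ratio of Tsc1 to Tsc2, scMC38 minus control, was -0.05 in place of 0.06.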

How the results depend on the processing

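For the 10 members and 4 ratios, 224 values were recomputed, of which 213 kept direction and side of the threshold. Only Eif4ebp1 had passed in the main fit. For the rest, staying above the threshold is the likelier outcome when libraries are left out, so this count says little about stability. Eif4ebp1 passed in 15 of 18 alternatives (0.86 to 1.06). It missed the threshold with the replicate block (log2 fold change 0.95, edgeR adjusted p = 0.145), without control 1 and 2 (0.94, adjusted p = 0.216) and without control 1. Leaving out each library gave 0.86 to 1.02 for Eif4ebp1, 0 to 1 members called higher, 1 to 59 genes called higher and 1 to 52 lower over all genes. The 0 members under the block and 0 without control 1 and 2 are this same loss. Same-numbered libraries did not deviate together (r of -0.11, -0.28, -0.01 and -0.24). Taken within groups of 4 libraries, these deviations cannot exclude a pairing by number. Signs of log2 fold changes that never passed turned for Rps6kb1 (0.0268 with total counts, 0.0383 without scMC38 1 and 3). They turned for Rheb (0.0597 and 0.0703 in the same 2 settings, -0.0867 to 0.0126 with each library left out). Deptor (-0.18 without control 1 and 2) and Rictor (-0.0868 without control 1 and 2, -0.0308 to 0.313 with each library left out) turned as well. So did the group difference in the log2 ratio of Tsc1 to Tsc2 (-0.0649 without control 1 and 2, -0.0521 to 0.104 with each left out). Calls over all genes, 104 higher and 66 lower, were 926 and 585 with DESeq2, 216 and 51 with total counts (80.9% higher against 61.2%), 69 and 45 with no filter, 0 and 1 with the block, 25 and 39 without scMC38 1 and 3, and 0 and 0 without control 1 and 2, where 1605 genes had an unadjusted p under 0.05. The cause of these shifts was not tested.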
